A study of Mus musculus with 16 samples.

Results

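Foxp3+ cells were examined among the cells that had been called CD8+ T cells 1 week after transplantation, in accepted kidney grafts and in the spleens of the recipients. A cell was counted as Foxp3+ when it held at least 1 unique molecular identifier (UMI, the tag of 1 captured mRNA molecule) of Foxp3. By this rule 1123 of 28380 cells (3.96%, 95% interval 3.73 to 4.19) were Foxp3+, 547 of 16467 in the graft and 576 of 11913 in the spleen. The cells were thus chosen by their raw Foxp3 counts, so that their number and their Foxp3 level are given as descriptions, with no test. Over all 9 matrices of CD8+ T cells of the series there were 1363 Foxp3+ cells among 72639. The recipients were wild-type C57BL/6J (B6) mice. They carried DBA/2J kidneys, which this strain pair accepts without treatment, and every Foxp3+ cell compared here came from an accepting recipient. For background only, naive spleens and rejecting grafts were used, the latter B6 kidneys in DBA/2J recipients by the study's methods, although the labels give C57BL/6J as the strain of every sample. Viable CD45+ cells had been sorted for droplet 3′ RNA-seq, with no sort on CD8 itself, and the CD8+ T cells had been named by the authors from clusters. Each tissue had 3 library tags, taken as 3 mice. The sources do not say whether graft library 1 and spleen library 1 came from the same mouse. The kidney had been perfused and digested with collagenase, and handling and tissue cannot be told apart in any comparison of the graft with the spleen.

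Foxp3 encodes the transcription factor that defines regulatory T cells (Tregs), which restrain other lymphocytes and are mostly CD4+. Tregs take up IL-2 through a receptor that includes CD25, the product of Il2ra, and display CTLA-4, the product of Ctla4, which removes costimulatory ligands from antigen-presenting cells. Many also carry Helios, a transcription factor encoded by Ikzf2. A smaller group of CD8+ T cells can express FOXP3 too, and activated CD8+ T cells use CTLA-4 and CD25 without being Tregs. The Foxp3 gene lies on chromosome X of GRCm38, on the plus strand, from 7573644 to 7595245. Cd4 lies on chromosome 6 from 124864692 to 124888221, on the minus strand. The genes of both CD8 chains neighbor each other on the plus strand of chromosome 6, Cd8b1 from 71322788 to 71337494 and Cd8a from 71373427 to 71379173.

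The Foxp3+ cells made up 3.29%, 3.61%, and 3.24% of graft libraries 1, 2, and 3, and 4.94%, 3.67%, and 6.13% of spleen libraries 1, 2, and 3. They held 829674 to 1333085 UMIs per graft library and 396328 to 1079513 per spleen library. Graft Foxp3+ cells were deeper than the other cells, with a median of 4793 UMIs per cell against 2515, and in the spleen the medians were 2884 and 2493. A deep cell has a better chance of showing 1 Foxp3 UMI, and a cell without one, called Foxp3-negative here, can still have held its mRNA. When every cell was thinned to 1000 UMIs, 0.905% of graft cells and 2.02% of spleen cells still showed Foxp3. For comparison, 21 of 26105 B cells of naive spleen libraries (0.0804%, median 2754 UMIs) held a Foxp3 UMI, as did 1 of 1963 myeloid cells of rejecting grafts (0.0509%, median 3081 UMIs). Those cells should lack Foxp3, but they came from other libraries than the Foxp3+ cells. Any 2 of the 6 libraries shared between 2 and 13 cell barcodes, and 1 shared barcode was Foxp3+ in graft libraries 1 and 3.

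The label was checked with Il2ra, Ctla4, and Ikzf2, which the rule did not use. After thinning to 1000 UMIs, 332 of 547 graft Foxp3+ cells (60.7%, 95% interval 56.5 to 64.8 over pooled cells) held a UMI of at least 1 of them, against 26.9% of the Foxp3-negative cells. By graft library 1, 2, and 3 these were 58.4%, 54.1%, and 64.7% of Foxp3+ cells and 25.6%, 23.4%, and 28.9% of the others. In the spleen the shares were 59.1% of 555 Foxp3+ cells that were deep enough and 10.8% of the Foxp3-negative cells. At least 2 of the 3 genes were seen in 16.1% of graft Foxp3+ cells and 2.82% of the others, and in 14.2% and 1.21% in the spleen. Just inside the threshold stood the 389 graft cells with exactly 1 Foxp3 UMI, of which 9.77% showed Il2ra, 40.4% Ctla4, and 26.5% Ikzf2. Of the 119 graft cells with 2 Foxp3 UMIs, 8.40%, 41.2%, and 29.4% showed these genes, and of the 39 with 3 or more, 23.1%, 35.9%, and 46.2% did. Of the 15920 graft cells just outside, with no Foxp3 UMI, 2.54%, 18.8%, and 8.46% did. In the spleen, Ikzf2 was seen in 40% of cells with 1 Foxp3 UMI, 37.4% of cells with 2, 46% of the 50 cells with 3 or more, and 7.66% of cells with none.

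The coreceptors of the Foxp3+ cells differed between the tissues. Cells were split by their UMIs of Cd4 and of Cd8a or Cd8b1. Of the graft Foxp3+ cells, 337 of 547 were CD8-only (61.6%, 95% interval 57.4 to 65.7), 91 held UMIs of both coreceptors, 85 held neither, and 34 were CD4-only (6.22%, interval 4.34 to 8.58). Of the spleen Foxp3+ cells, 70 of 576 were CD8-only (12.2%, interval 9.60 to 15.1), 18 held both, 338 held neither, and 150 were CD4-only (26.0%, interval 22.5 to 29.8). The CD8-only share was 62.0%, 65.1%, and 59.9% in graft libraries 1, 2, and 3, and 9.14%, 11.9%, and 15.1% in spleen libraries 1, 2, and 3. Every graft library lay above every spleen library. The Foxp3-negative cells of the same libraries were CD8-only in 81.0 to 88.5% of graft cells and 42.0 to 50% of spleen cells, and so CD8 UMIs were less frequent in the spleen matrix as a whole.

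With each cell thinned to 1000 UMIs, the CD8-only share was 48.2% ± 8.81 (SD, n = 3 libraries) in the graft and 7.32% ± 1.53 in the spleen, the CD4-only share 4.50% ± 1.67 and 10.8% ± 3.02, and the share with neither 45.1% ± 12.4 and 81.6% ± 3.32. For each of these 3 classes the libraries of the tissues did not overlap, and the 2-sided exact permutation test gave p = 0.1 (0.133 adjusted over 4 classes), the smallest p that 3 against 3 libraries allow. Among cells with at least 2 Foxp3 UMIs the CD4-only shares overlapped (9.52%, 4.35%, and 0% against 9.80%, 8.11%, and 6.49%, exact permutation p = 0.3). The share with both was 2.25% ± 2.14 and 0.328% ± 0.286, with overlapping libraries (exact permutation p = 0.3). Thinned alike, the Foxp3-negative cells were CD8-only in 65.7% of graft and 33.1% of spleen cells. They were CD4-only in 1.48% and 5.48%, and held neither coreceptor in 32.4% and 61.1%. Each of these 3 shares thus differed between the tissues in the same direction as among Foxp3+ cells. A cell without a UMI of a coreceptor can still have held its mRNA, and how often this was so was not tested.

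**Figure D1:**
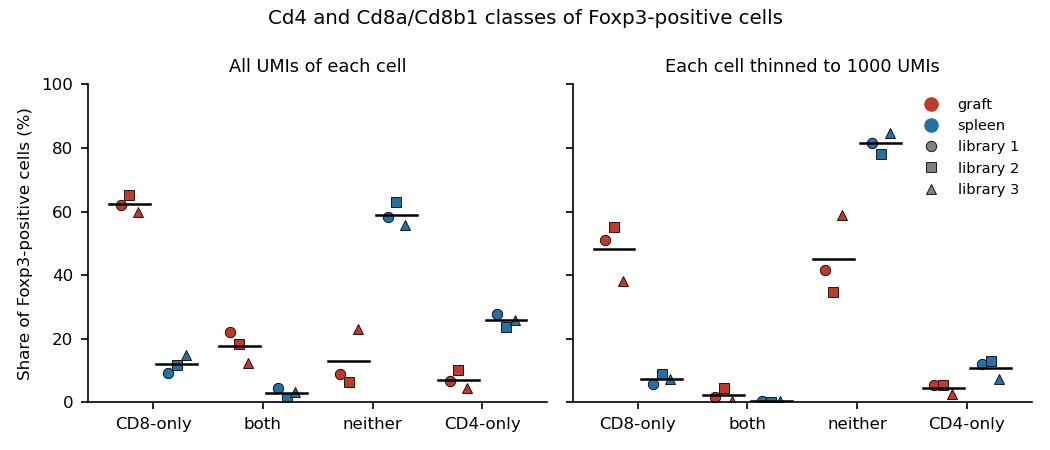
Share of Foxp3+ cells (y axis, %) in each coreceptor class, with 1 point per library (circle, square, and triangle for libraries 1, 2, and 3), graft in red, spleen in blue, and the mean as a bar. With all UMIs (left) the graft lies at 59.9 to 65.1% CD8-only and the spleen at 9.14 to 15.1%, and with 1000 UMIs per cell (right) the order of the tissues is the same.

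Cells with UMIs of both coreceptors were the deepest. Their median was 7638 UMIs in the graft, where 52.7% of them lay above the 95th percentile of their library, and 8390 UMIs in the spleen, where 83.3% did. Of Foxp3-negative graft cells with both coreceptors, 19.8% lay above it. So did 22.0% of the CD8-only graft Foxp3+ cells, against 4.53% of the CD8-only Foxp3-negative cells. No doublet caller was run, and whether cells of any of these classes were pairs of cells was not tested. Of the CD8-only graft Foxp3+ cells, 72.4% had UMIs of both Cd8a and Cd8b1, against 65.6% of the CD8-only Foxp3-negative cells. These shares are of unthinned cells, whose median depths were 4828 and 2634 UMIs, and the part of depth in them was not tested. Their Cd8a level was 427 CPM (UMIs scaled to a library total of 1000000) against 549, and their Cd8b1 level 619 against 936. In the naive spleen B cells, 0.379% held a Cd8a UMI and 0.203% a Cd4 UMI (median 2754 UMIs). In the deeper naive spleen myeloid cells (6525 UMIs) the shares were 1.57% and 2.09%, and in the myeloid cells of rejecting grafts (3081 UMIs) 0.509% and 0.458%. Seen from the classes, Foxp3 was present in 8.19% of CD4-only and 2.49% of CD8-only graft cells, and in 10.4% and 1.37% of these classes in the spleen. After thinning, the shares were 3.50% and 0.570% in the graft and 3.77% and 0.270% in the spleen. CD8-only was the largest class among all graft cells, while the Foxp3+ share was higher among CD4-only than among CD8-only cells in each of the 6 libraries, with and without thinning.

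In the graft, Foxp3+ cells were compared with the Foxp3-negative cells of the same library, on UMIs summed per library. Most genes of the Treg identity, effector Treg, and division lists were higher in the Foxp3+ cells, and 10 of 21 genes of the CD8 and killing list and 4 of 14 of the resting list were lower. Of 11366 genes tested, 882 were higher (7.76%) and 219 lower (1.93%) at an adjusted p under 0.05 in edgeR's quasi-likelihood test. The median log2 fold change of all these genes was 0.10 with plain library totals and -0.01 with TMM factors, which gave 493 higher and 416 lower. Ribosomal protein genes took 26.0% of the UMIs of graft Foxp3+ cells and 29.6% of those of the others. The part of this in the shift was not tested. Fewer genes were called without graft library 1 (663), 2 (588), or 3 (601).

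Of the 20 genes listed for Treg identity, 16 rose and none fell, and their median log2 change was 1.26 beside 0.10 over all genes. With TMM factors 14 rose and 1, Nrp1, fell. Il2ra stood at 95.2, 110, and 180 CPM in Foxp3+ cells of graft libraries 1, 2, and 3, and at 23.1, 21.4, and 46.5 in the other cells of these libraries. Every Foxp3+ value lay above every other value, and the log2 fold change was 2.09 ± 0.11 (SE, adjusted p = 4.3e-21). Ctla4 had 499, 526, and 505 CPM against 214, 214, and 232 (log2 1.21 ± 0.07), and Ikzf2 388, 331, and 384 against 102, 84.9, and 105 (1.92 ± 0.08). Tnfrsf4, the costimulatory receptor OX40, had 523, 338, and 449 CPM against 102, 61.2, and 92.0 (2.37 ± 0.08), one of the largest differences of any well-expressed gene. The related receptor GITR, encoded by Tnfrsf18, rose by 1.30. Genes that let Tregs display and release TGF-β rose as well, Lrrc32 by 3.28 (20.9 to 31.3 CPM against 2.05 to 3.58) and Itgb8 by 2.95 (5.22 to 19.3 CPM against 0.912 to 3.11). Ikzf4, which encodes Eos, a partner of FOXP3, rose by 1.94, the folate receptor gene Izumo1r by 1.66, and the actin-capping gene Capg by 1.06. Nrp1, a coreceptor associated with Tregs of thymic origin, had 104, 91.8, and 65.3 CPM against 113, 88.6, and 100 (-0.25, adjusted p = 0.19). In cells without a CD8 UMI it was called lower (-1.20, adjusted p = 0.0227), whereas Itgb8 (2.06, adjusted p = 0.208) and Ikzf4 (2.32, 0.0545) were not called there.

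**Figure D2:**
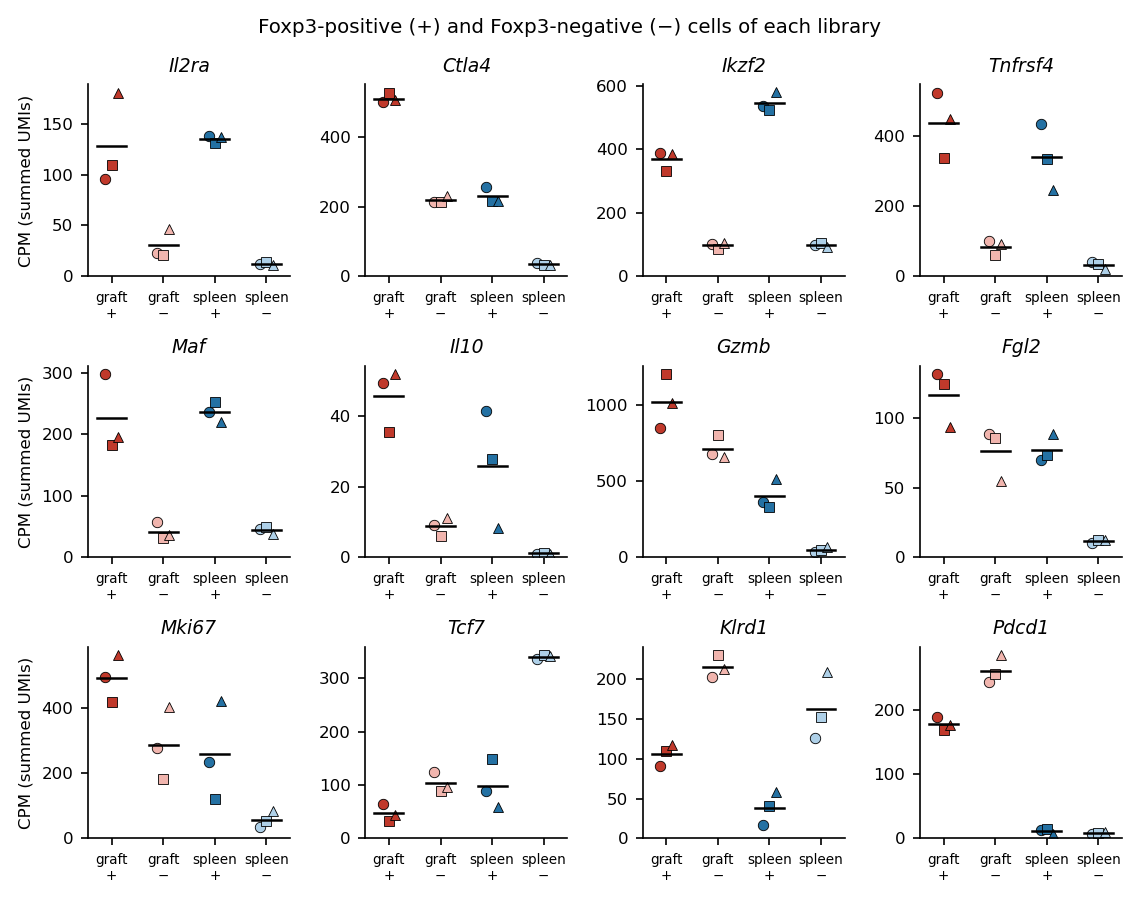
CPM of 12 genes (y axes, linear from 0) in Foxp3+ (+) and Foxp3-negative (−) cells, with 1 point per library (circle, square, and triangle for libraries 1, 2, and 3) and the mean as a bar. Il2ra, Ctla4, Ikzf2, Tnfrsf4, and Maf were higher in the Foxp3+ cells of every library of both tissues, while Pdcd1 stood at 169 to 189 CPM in Foxp3+ and 243 to 285 CPM in other graft cells and at most at 15.1 CPM in spleen cells.

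Of 26 genes of effector Tregs, the activated form found in tissues, 16 rose and 1 fell (median 0.76). Maf, a transcription factor that promotes Il10 expression, had 299, 184, and 197 CPM against 57.4, 30.9, and 36.7 (log2 2.45 ± 0.09), and Il10 itself 49.4, 35.5, and 51.8 against 9.16, 6.00, and 11.0 (2.37 ± 0.19). Klrg1, a receptor of differentiated effector cells, rose by 2.34, the chemokine receptor gene Ccr2 by 1.51, and Icos, a costimulatory receptor, by 0.92. Areg, a growth factor of tissue repair, rose by 1.10, with 67.5, 25.0, and 42.0 CPM against 31.1, 11.2, and 20.3, but was at 0.51 without cells of high UMIs or mixed markers (adjusted p = 0.508) and at 0.22 in cells without a CD8 UMI (0.883), where Klrg1 (1.53, 0.0681) was not called either. Granzyme B, encoded by Gzmb, is used by both killer cells and activated Tregs. It had 849, 1201, and 1013 CPM against 675, 802, and 661 (0.51 ± 0.07). The gene that fell was Cxcr6, a receptor of tissue-resident T cells, with 142, 194, and 89.3 CPM against 231, 267, and 150 (-0.62).

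Among 15 genes of IL-2 signaling 5 rose and 1 fell (median 0.19). Besides Il2ra, the targets Socs2 (1.91), Pim1 (0.86), and Cish (0.74) rose, and the survival gene Bcl2 fell by 0.79. Of 8 genes of the CD4 lineage, 5 rose (median 0.58). They included Zbtb7b, which encodes ThPOK, the factor that commits cells to that lineage, with 14.5, 10.4, and 8.25 CPM against 5.42, 3.27, and 3.70 (1.39). Trat1 (1.95) and Cd5 (0.77) rose too. Without cells of high UMIs or mixed markers, neither Zbtb7b (1.49, adjusted p = 0.134) nor Trat1 (0.69, 0.731) was called, and in cells without a CD8 UMI none of these 3 genes was (0.65, 0.51, and 0.42), nor was Cish (0.60). Zbtb7b was not called with at least 2 Foxp3 UMIs required either (1.40, 0.126). Cd4 itself, which did not choose the cells in this comparison, had 90.4, 49.0, and 44.3 CPM against 28.0, 16.8, and 15.3 (1.59), and Cd8b1 539, 632, and 375 against 962, 946, and 686 (-0.76).

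Of 21 genes of the CD8 lineage and of killing, 2 rose and 10 fell (median -0.40). Xcl1, a chemokine that draws cross-presenting dendritic cells, had 245, 147, and 267 CPM against 642, 583, and 389 (log2 -1.24 ± 0.11). The killer-cell receptor genes Klrd1 (90.4, 110, and 118 CPM against 203, 231, and 213) and Klrk1 (55.4 to 61.6 CPM against 116 to 123) both fell by 1.01. Ly6c2, a surface gene of effector and memory CD8+ cells, fell by 1.31, and Fcer1g, an adaptor gene of innate lymphocytes and myeloid cells, by 1.18. Ly6c2 shares reads with its near copy Ly6c1 and is uncertain as a single gene. The 2 genes that rose were Gzmb and Prf1, which encodes perforin (42.2, 77.2, and 72.8 CPM against 49.6, 43.2, and 44.4, log2 0.52). Prf1 was not called without graft library 2 (adjusted p = 0.224) or 3 (0.316), nor with TMM factors (0.0563), with 2 Foxp3 UMIs required (0.181), or without cells of high UMIs or mixed markers (0.15, 0.869). Of 12 genes of inhibitory receptors and of the program induced by lasting stimulation, 3 rose and 3 fell (median -0.01). Pdcd1, the gene of PD-1, had 189, 169, and 177 CPM against 243, 257, and 285 (-0.56), and Cd160 fell by 0.66. Cd160 was not called without cells of high UMIs or mixed markers (-0.55, adjusted p = 0.0685) or in CD8-only cells (-0.41, 0.0814). Lag3 rose by 0.41, but was not called without graft library 2 (adjusted p = 0.0814) or with TMM factors (0.0676), with 2 Foxp3 UMIs required (0.515), without cells of high UMIs or mixed markers (0.432), or in cells without a CD8 UMI (0.463). Of 14 genes of resting T cells, 1 rose and 4 fell (median -0.28), among them Tcf7, a factor of stem-like T cells, with 63.9, 32.3, and 43.5 CPM against 124, 88.9, and 96.4 (-1.16).

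Of 12 genes that have been linked to regulatory CD8+ T cells, 4 rose and 1 fell, and their median was -0.28. The gene Fgl2, which encodes a soluble inhibitor of dendritic cells, was among those that rose, with 131, 124, and 93.0 CPM against 88.1, 85.3, and 54.5 (log2 0.63). It was not called in cells without a CD8 UMI (0.77, adjusted p = 0.0560). The others were Il10 and Ikzf2, already given, and Il2rb, the β chain of the IL-2 receptor.

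RNA of other cells was counted beside these results. Of 10 B-cell genes 3 rose in graft Foxp3+ cells, and their summed level was 428 to 537 CPM against 227 to 283. Most of this was Ighm, the heavy chain of IgM, with 375, 394, and 338 CPM against 198, 172, and 182 (log2 1.00), while at least 2 of the defining genes Cd79a, Cd79b, and Ms4a1 were seen in 2 of 547 graft Foxp3+ cells. Of 10 myeloid genes tested none rose and 3 fell, with a summed level of 259 to 351 CPM against 354 to 468. None of 8 NK-cell genes rose and 3 fell, with 147 to 469 CPM against 296 to 457. None of 4 testable genes of γδ T cells rose and 2 fell, with 27.8 to 33.4 CPM against 47.6 to 63.3, and the 1 red-cell gene tested, Hbb-bs, was lower, with 1 UMI in Foxp3+ and 405 in other cells, but 401 of the 405 came from graft library 1. Of 20 genes of kidney parenchyma, 9 were at 0 in the graft Foxp3+ cells, among them the tubule genes Umod, Slc34a1, and Aqp2, and 3 could be tested. Their summed level was 99.1 to 144 CPM against 52.3 to 65.9. One of these, Ass1, an enzyme of arginine synthesis that lymphocytes can also make, was higher (89.7 to 119 CPM against 23.3 to 34.4, log2 1.79), and 1 was lower. The part of these RNAs in the results was not tested.

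All 18 division genes rose in graft Foxp3+ cells (median 0.47; 13 with TMM factors). Mki67 had 497, 420, and 564 CPM against 279, 181, and 403 (log2 0.82 ± 0.10), but was not called with DESeq2 (0.73, adjusted p = 0.237) or without the replicate block in edgeR (0.78, adjusted p = 0.302). After thinning to 1000 UMIs, cells with UMIs of at least 2 of the 5 genes Mki67, Top2a, Pclaf, Stmn1, and Birc5 were counted as dividing. They made up 34.9%, 46.8%, and 55.1% of Foxp3+ cells in graft libraries 1, 2, and 3, and 15.6%, 12.6%, and 33.4% of the other cells. In the spleen they made up 8.42%, 6.80%, and 25.2% of Foxp3+ cells and 1.55%, 1.79%, and 4.11% of the others. The Foxp3+ share was the higher one in each of the 6 libraries. Graft and spleen Foxp3+ cells did not overlap (45.6% ± 10.2 and 13.5% ± 10.2, SD, n = 3 libraries each, 2-sided exact permutation p = 0.1, the smallest possible).

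**Figure D3:**
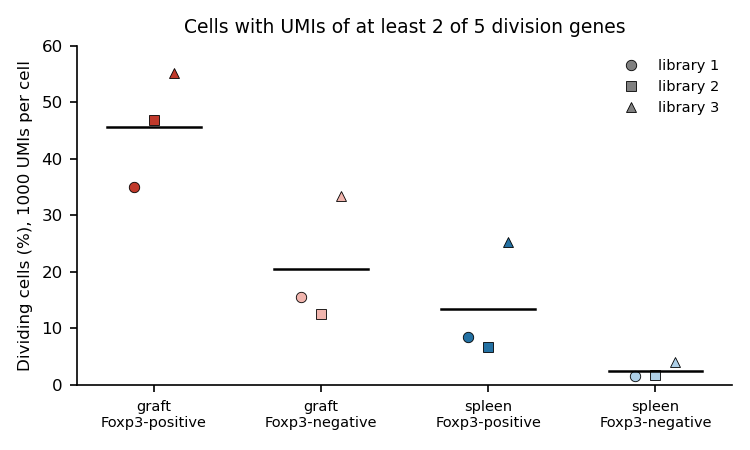
Share of dividing cells after thinning to 1000 UMIs per cell (y axis, %), with 1 point per library (circle, square, and triangle for libraries 1, 2, and 3) and the mean as a bar. Graft Foxp3+ cells lie at 34.9 to 55.1%, spleen Foxp3+ cells at 6.80 to 25.2%, and library 3 is the highest in each of the 4 groups.

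Since division moved with Foxp3, the comparison was repeated in cells without a UMI of Mki67, Top2a, Pclaf, or Birc5, which left 126 graft Foxp3+ cells (23.0% of them, against 54.1% of the others). In these cells 50 genes were higher and 16 lower. Of the Treg identity list 7 of 20 genes were called, all higher, and its median was 1.06. The log2 changes were 1.66 for Il2ra, 0.97 for Ctla4, 1.70 for Ikzf2, 2.00 for Tnfrsf4, and 2.08 for Maf, all past the threshold. Cd160 and Lag3 were at 0.11 and -0.03 there, and Cd8a, which fell by 0.50 among all cells, was at 0.07. Several genes were no longer called there at log2 changes close to or above those among all cells, namely Lrrc32 (3.47, from 3.28), Il10 (2.22, from 2.37), Ikzf4 (2.03, from 1.94), Zbtb7b (1.25, from 1.39), Prf1 (0.80, from 0.52), and Fgl2 (0.69, from 0.63). Why these calls were lost was not tested. Itgb8 was at 1.99, from 2.95. Other genes that were no longer called were at 0.92 for Klrg1, 0.85 for Cd4, 0.65 for Socs2, 0.52 for Icos, 0.51 for Cd5, 0.43 for Areg, 0.14 for Cish, -0.19 for Bcl2, -0.37 for Cxcr6, -0.43 for Xcl1 and Pdcd1, -0.45 for Fcer1g, and -0.78 for Klrk1. Trat1 had no UMI in these Foxp3+ cells.

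The same comparison in the spleen gave larger differences. Foxp3+ cells of the spleen had far higher Treg, effector Treg, and division genes than the Foxp3-negative cells of their library, and lower genes of resting T cells. Of the 11366 genes 2494 were higher (21.9%) and 459 lower (4.04%), and with TMM factors 1145 were higher and 1007 lower. The median of all genes was 0.23 with library totals and -0.04 with TMM. Without spleen library 3 the calls came to 1880.

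Of the Treg identity list 19 of 20 genes rose (median 2.41). Il2ra had 137, 131, and 137 CPM in Foxp3+ cells of spleen libraries 1, 2, and 3 against 12.2, 14.3, and 11.2 (log2 3.46 ± 0.14, adjusted p = 3.0e-27). Ctla4 had 257, 217, and 215 CPM against 36.9, 32.1, and 33.6 (2.74 ± 0.10), Ikzf2 535, 525, and 579 against 97.7, 105, and 92.3 (2.49 ± 0.08), and Tnfrsf4 436, 336, and 247 against 40.6, 35.9, and 21.9 (3.39 ± 0.09). No Foxp3-negative library reached a Foxp3+ library for any of these 4 genes. Tnfrsf18 rose by 1.91, Lrrc32 by 3.98, and Entpd1, the ectonucleotidase CD39, by 2.68. Nrp1 had 66.5, 93.4, and 64.8 CPM against 17.8 to 25.6 (1.70), but was not called among CD8-only cells (0.85, adjusted p = 0.248). The IL-2 targets Socs2 (2.94), Cish (2.50), and Pim1 (1.77) were among 7 of 15 genes of IL-2 signaling that rose, and 2 fell.

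Of the effector Treg list 22 of 26 genes rose and 1 fell (median 2.06). Gzmb had 363, 331, and 511 CPM against 37.8, 48.8, and 66.7 (log2 2.99 ± 0.09), and Maf 236, 252, and 220 against 46.5, 49.7, and 38.3 (2.42). Il10 had 41.4, 27.8, and 8.34 CPM against 0.982 to 1.33 (4.43), Klrg1 43.5 to 76.8 against 3.52 to 5.83 (3.71), and the IL-33 receptor gene Il1rl1 13.0 to 20.2 against 0.926 to 1.11 (3.96). Icos and Ccr2 rose by 1.60 and 2.48, and Cxcr6 again fell, by 0.95. Cxcr6 was not called without cells of high UMIs or mixed markers (-0.70, adjusted p = 0.0848) or in CD8-only cells (-0.34, 0.780), nor was Il10 in CD8-only cells (4.22, 0.117). Of 14 genes of resting T cells 11 fell and none rose (median -1.05). Dapl1 had 48.7, 37.8, and 23.2 CPM against 271, 209, and 222 (-2.78), Tcf7 88.6, 149, and 58.4 against 336, 344, and 342 (-1.96), and Igfbp4 and Lef1 fell by 2.76 and 1.43.

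Of the CD8 and killing list 2 genes rose and 11 fell in the spleen (median -0.41). Cd8a had 29.5, 45.4, and 42.6 CPM against 147, 136, and 130 (log2 -1.81), Cd8b1 fell by 1.91, and Cd4 rose by 0.88 (117, 119, and 83.4 CPM against 58.0, 55.1, and 53.7). Klrd1 fell by 2.07, Xcl1 by 2.32, Ly6c2 by 2.05, and Cd160 by 1.96, although Cd160 was at -0.58 among CD8-only cells and not called (adjusted p = 0.456). One of the genes that rose was Gzmb. The other, Ccl4, had 158, 30.3, and 13.0 CPM against 24.5, 21.9, and 21.7, and without spleen library 1 its log2 change was -0.28. Of the regulatory CD8 list 4 genes rose and 4 fell. Fgl2 had 69.4, 73.2, and 88.0 CPM against 10.6, 12.7, and 12.1 (2.74). Klra1, Klra3, and Klra6, inhibitory Ly49 receptors of NK cells and of some regulatory CD8+ cells, had no UMI in spleen Foxp3+ cells. At a floor of 3 counts over the group they were at least 16.3-fold, 7.21-fold, and 14.0-fold lower than in the other cells, although reads of the Ly49 genes can be assigned to a near copy. All 18 division genes rose (median 1.94), among them Mki67 (235, 121, and 423 CPM against 34.6, 51.8, and 84.7, log2 2.24) and Ube2c (2.58). Of the inhibitory list 6 of 12 rose and 1 fell, and of the CD4 lineage list 5 of 8 rose and 2 fell.

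B-cell RNA was higher in the spleen Foxp3+ cells as well. Of the 10 B-cell genes 9 rose (median 0.47), and their summed level was 2526 to 4625 CPM against 1727 to 3349 in the other cells. At least 2 of Cd79a, Cd79b, and Ms4a1 were found in 138 of 576 spleen Foxp3+ cells (24.0%) and in 16.3% of the others. Of the myeloid list 2 of 10 genes rose and 1 fell, with a summed level of 250.1 to 428 CPM against 195 to 238. None of the NK-cell and γδ T-cell lists rose, with 2 of 8 and 4 of 4 lower and summed levels of 42.8 to 309 CPM against 135 to 212 and of 2.95 to 17.7 CPM against 56.9 to 60.7. Of the kidney parenchyma list 2 of 3 testable genes were higher, the red-cell list had no call, and Klra4, C1qa, and Trdv4 were at 0 in spleen Foxp3+ cells. Ribosomal protein genes took 25.9% of UMIs in Foxp3+ cells and 35.7% in the others. Cells above the 95th percentile of UMIs, and those with 2 or more genes of the B-cell list or of the myeloid list, were then left out. In this setting 18 of 19 Treg identity genes were called higher, with a median of 2.52, beside 1339 of 10308 genes and a median of 0.24 over all genes. The part of these RNAs in the remaining genes was not tested.

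**Figure D4:**
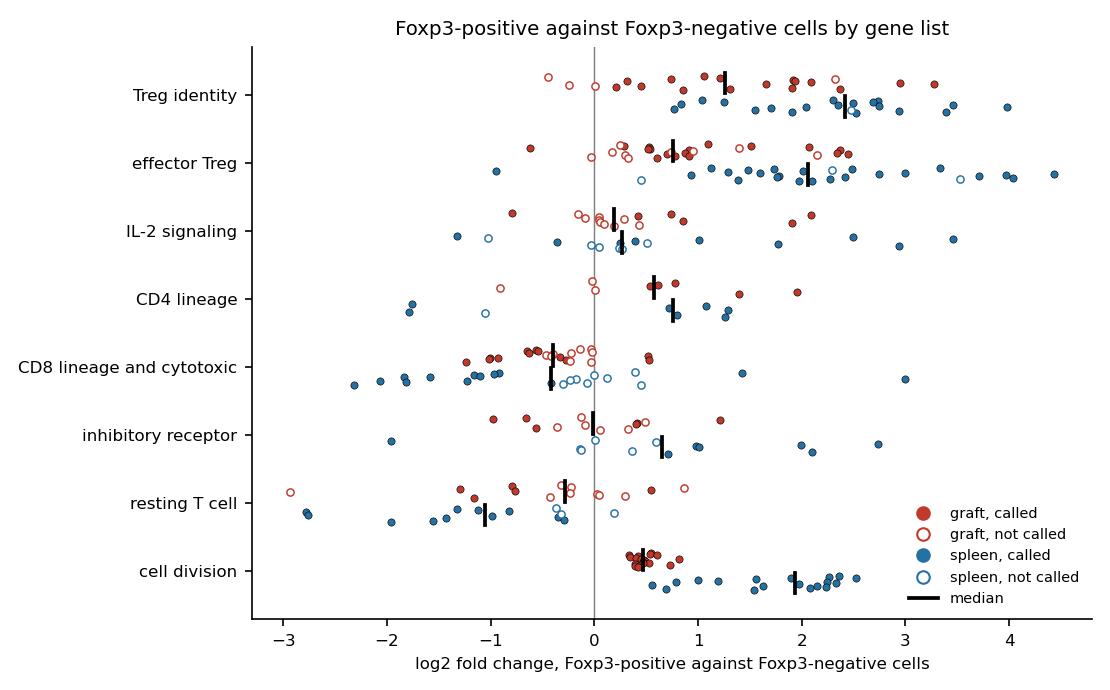
Log2 fold change of Foxp3+ against Foxp3-negative cells (x axis) for the genes of 8 lists, graft in red and spleen in blue, with 1 point per gene, filled where it passed an adjusted p of 0.05, and black bars at the medians of the points. The Treg identity genes center on 1.26 in the graft and 2.41 in the spleen, and the division genes on 0.47 and 1.94.

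The difference between the tissues was tested as an interaction. On the log2 scale, the change with Foxp3 was higher in the graft for 177 genes (1.56%) and lower for 801 (7.05%), or for 296 and 442 with TMM factors. Higher here means more positive or less negative, and lower the reverse. The median of all genes was -0.14 with library totals and 0.01 with TMM. Calls came to 527 without graft library 3 and 651 without spleen library 3. Of the Treg identity list the change was lower in the graft for 14 of 20 genes and higher for none. It was also lower for 17 of 26 effector Treg genes and 15 of 18 division genes, again with none higher. For the resting list the change was higher in the graft for 9 of 14 genes and lower for none. For the CD8 and killing list it was higher for 4 of 21 genes and lower for 2. For the inhibitory list it was higher for 1 of 12 genes and lower for 3. None of the 10 B-cell genes differed. Of 10 myeloid genes 2 were lower, and of 8 NK-cell genes 1 was higher and 1 lower. Of 4 γδ T-cell genes 1 was higher, and none of 3 kidney parenchyma genes was called. The 1 red-cell gene, Hbb-bs, was lower, with most of its graft UMIs from library 1.

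The 4 groups of values show where these differences lay. Among well-expressed genes Gzmb had the lowest interaction (log2 -2.48 ± 0.11). Its level was 849 to 1201 CPM in graft and 331 to 511 in spleen Foxp3+ cells, but 661 to 802 in graft and 37.8 to 66.7 in spleen Foxp3-negative cells. For Ctla4 (-1.53 ± 0.12) the levels were 499 to 526 and 215 to 257 CPM in Foxp3+ cells, and 214 to 232 and 32.1 to 36.9 in Foxp3-negative cells. For Il2ra (-1.38 ± 0.17) the Foxp3+ cells of the graft (95.2 to 180 CPM) and of the spleen (131 to 137 CPM) overlapped, and the Foxp3-negative cells did not (21.4 to 46.5 and 11.2 to 14.3 CPM). Fgl2 (-2.11), the mitotic genes Ube2c (-2.03) and Kif11 (-2.02), and S100a4 (-1.99) had the next lowest values. Nrp1 (-1.95) was at 65.3 to 104 CPM in graft Foxp3+ cells and 64.8 to 93.4 in those of the spleen, and at 88.6 to 113 and 17.8 to 25.6 CPM in the Foxp3-negative cells. The interaction was highest for Dapl1 (1.49), Lef1 (1.47), Arl4c (1.39), and Txk (1.19) among well-expressed genes, and for Cd8a it was 1.32. Among cells without a CD8 UMI, fewer genes differed (111), and Il2ra (-0.48) and Ikzf2 (-0.09, from -0.57) were not called, nor were Lef1 (0.92) and Txk (0.81). Among CD8-only cells Dapl1 (0.89, adjusted p = 0.128) and Nrp1 (-0.97, adjusted p = 0.322) were not called, and with at least 2 Foxp3 UMIs required, Cd8a (0.57, adjusted p = 0.220) and Ikzf2 (-0.42, 0.109) were not. Kif11 was not called in cells without division UMIs (-1.50, 0.846).

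Graft and spleen Foxp3+ cells were then compared directly. Most genes of the CD8 and killing list and of the inhibitory list were higher in the graft, and most genes of the resting list and all 10 B-cell genes were higher in the spleen. Of 18 Treg identity genes 4 were higher in the graft and 3 lower, and a gene that was not called need not be alike in the tissues. Foxp3-negative cells were not part of this comparison, and their Gzmb and Pdcd1 levels were higher in the graft too. A difference here need not be particular to Foxp3+ cells. Of 7065 genes 591 were higher in the graft (8.37%) and 535 lower (7.57%), or 588 and 557 with TMM factors. Without spleen library 1 there were 749 calls.

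Among 18 testable Treg identity genes 4 were higher in the graft and 3 lower (median 0.20, beside 0.01 over all genes). Ctla4 was higher, with 499, 526, and 505 CPM against 257, 217, and 215 (log2 1.15 ± 0.14), and so was Nt5e, the ectonucleotidase CD73 (1.39). Ikzf2 was lower, with 388, 331, and 384 CPM against 535, 525, and 579 (-0.57 ± 0.14, adjusted p = 0.0069). The libraries of several genes overlapped between the tissues. Il2ra differed by -0.06 ± 0.20 (adjusted p = 0.89), Tnfrsf4 by 0.37 ± 0.19, Tnfrsf18 by 0.03 ± 0.15, Capg by 0.07 ± 0.14, Lrrc32 by 0.16 ± 0.27, and the effector gene Maf by -0.06 ± 0.18. The Ikzf2 difference was not called in any of the coreceptor subsets tested, at 0.07 in cells without a CD8 UMI, -0.27 in CD8-only cells (adjusted p = 0.540), and -0.01 in CD4-only cells (0.995), nor with at least 2 Foxp3 UMIs required (-0.42, 0.129). In cells without a CD8 UMI Tnfrsf4 was called higher in the graft (0.92, adjusted p = 0.0281), as it was in CD4-only cells (1.10, adjusted p = 0.0274). Nt5e was not called without cells of high UMIs or mixed markers (0.67, adjusted p = 0.106). Il2ra was called lower in the graft without cells of high UMIs or mixed markers (-0.75, adjusted p = 0.0478) and among cells without division UMIs (-1.07), and Nt5e was not called among the latter (0.60, 0.301).

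Of 21 effector Treg genes 9 were higher in the graft and 4 lower (median 0.97). Icos had 366, 323, and 329 CPM against 105, 103, and 134 (log2 1.55), Cxcr6 142, 194, and 89.3 against 20.7, 25.2, and 21.3 (2.67), and Areg 67.5, 25.0, and 42.0 against 5.91, 7.57, and 4.63 (2.94). Gzmb was higher by 1.33, but by 0.75 in cells without a CD8 UMI (adjusted p = 0.0780) and by 0.47 in CD4-only cells (0.315). Klrg1 went the other way, with 18.1, 17.7, and 15.8 CPM against 76.8, 63.1, and 43.5 (-1.79), and was not called in cells without a CD8 UMI (-0.96, adjusted p = 0.180) or without cells of high UMIs or mixed markers (-1.56, 0.0790). Of 11 inhibitory genes 9 were higher and 1 lower (median 2.20). Pdcd1 had 189, 169, and 177 CPM against 13.3, 15.1, and 7.41 (4.02 ± 0.24), Lag3 112, 120, and 79.5 against 19.2, 17.7, and 18.5 (2.46), Havcr2, the gene of TIM-3, 27.7, 28.2, and 23.3 against 4.43, 2.52, and 3.71 (2.77), and the immediate-early factor Nr4a2 206, 224, and 170 against 11.8, 17.7, and 7.41 (4.18). Every graft value of these genes was above every spleen value.

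Of 20 CD8 and killing genes 17 were higher in graft Foxp3+ cells and none lower (median 1.63). Xcl1 had 245, 147, and 267 CPM against 10.3, 2.52, and 5.56 (log2 5.05), Ifng 113, 174, and 113 against 22.2, 15.1, and 29.6 (2.46), and Nkg7 1684, 2020, and 1416 against 353, 500, and 656 (1.75). Cd8a and Cd8b1 were higher by 3.20 and 1.96, as the coreceptor classes had shown. Cd4 was lower by 0.80 and Zbtb7b by 1.55. The call of Cd4 was lost without graft library 2 (adjusted p = 0.121) or 3 (0.182) and without spleen library 1 (0.134) or 2 (0.0781), and with 2 Foxp3 UMIs required (0.506). Among cells without a CD8 UMI, where 195 of 3722 genes were higher in the graft, 1 of 7 testable genes of the killing list was higher and 4 of 4 inhibitory genes were. Among CD8-only cells, where 163 of 4420 genes were higher, these counts were 9 of 18 and 6 of 8.

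Hspa1a, an inducible heat-shock gene, had 111, 280, and 200 CPM in the graft libraries and no UMI in any spleen library, and so was at least 144-fold higher at a floor of 3 counts over the group. Its near copy Hspa1b had 84.4, 193, and 132 CPM and was at least 99.1-fold higher. Ier5l (5.47) and Rgs16 (5.13), both induced by stimulation, were also among the highest. Of 12 resting genes 9 were lower in the graft and none higher. Klf2, which keeps T cells in circulation, had 194, 212, and 178 CPM against 750, 659, and 666 (log2 -1.83), and its target S1pr1, the receptor for exit from lymphoid tissue, had a log2 change of -1.25, but was at -0.47 in cells without a CD8 UMI (adjusted p = 0.222) and at -0.39 in CD4-only cells (0.539). All 10 B-cell genes were lower in the graft. Ms4a1, the gene of CD20, had 2 UMIs in the graft against 376 in the spleen, a ratio of 273 (95% interval 74.9 to 2259). Cd79a and Ly6d were lower by 6.98 and 7.61, and the B-cell genes Mzb1 and Fcmr by ratios of 149 (interval 40.6 to 1235) and 133 (36.2 to 1104). Of 18 division genes 11 were higher in the graft (median 0.88). Mki67 was higher by 0.87, and its call was lost without graft library 1 (adjusted p = 0.0760) or 3 (0.133) and without spleen library 1 (0.119) or 2 (0.0830), with 2 Foxp3 UMIs required (0.15), and in CD8-only cells (0.457). In the graft none of the IL-2 signaling list of 14 was higher and 4 were lower. Of the shorter lists, 1 of 6 CD4 lineage genes was higher and 3 lower, 1 of 6 regulatory CD8 genes higher and 2 lower, and 2 of 5 myeloid genes higher and 1 lower. Both testable kidney parenchyma genes were lower (median -1.89), the 1 testable γδ T-cell gene was higher (2.86), and neither of 2 NK-cell genes was called.

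Within the graft, CD8-only and CD4-only Foxp3+ cells of the same library were set against each other. The CD4-only side had 11, 11, and 12 cells and 175262 UMIs in all, so this comparison has little depth. Of 6375 genes 54 were higher in CD8-only cells (0.847%) and 73 lower (1.15%), or 117 and 34 with TMM factors. The median of all genes was -0.04 with library totals and 0.14 with TMM. Without graft library 1, 2, or 3 there were 64, 46, and 55 calls. Cd4, Cd8a, and Cd8b1 chose the cells and were not tested.

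Of 20 CD8 and killing genes 14 were higher in CD8-only Foxp3+ cells and none lower. Their median was 2.27, or 2.00 with the 4 genes that had no UMI in CD4-only cells set to their floor. Runx3, the factor that fixes the CD8 lineage, had 174, 174, and 155 CPM against 22.9, 50.5, and 19.0 (log2 2.28 ± 0.45), and Nkg7 1872, 2128, and 1553 against 964, 1263, and 762 (0.87). Gzma, the gene of granzyme A, had 499 UMIs against 1, a ratio of 45.6 (95% interval 8.14 to 1803), and Klrd1 237 against 1, a ratio of 21.6 (interval 3.85 to 858). Ccl3 had 77.7, 106, and 205 CPM against no UMI and was at least 8.28-fold higher. Ifitm1 (230 UMIs against 2, ratio 10.5, interval 2.87 to 87.2) and Ly6c2 (2.56) were also higher, as were Cxcr6 (2.26), Pdcd1 (1.65), and Gzmb (1013, 1092, and 1119 CPM against 344, 846, and 743, log2 0.68). Runx3, Nkg7, Gzma, and Klrd1 passed the threshold whichever library was left out. The call was lost for Ccl3 without graft library 3 (adjusted p = 0.103), for Ifitm1 without library 1 (0.283) or 3 (0.180), for Ly6c2 without library 2 (0.165), for Cxcr6 without library 2 (0.240), for Pdcd1 without library 2 (0.0877) or 3 (0.346), and for Gzmb without library 1 (0.362) or 3 (0.0584).

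The Treg identity list had 2 of 17 genes lower in CD8-only Foxp3+ cells and none higher (median -0.40). Ikzf2 had 334, 262, and 303 CPM against 367, 530, and 724 (log2 -0.90), and its call was lost without graft library 2 (adjusted p = 0.0638) or 3 (0.248). Tnfrsf4 had 450, 252, and 366 CPM against 642, 543, and 800 (-0.94), and was lost without library 3 (0.0584). Il2ra stood at 79.8, 82.9, and 163 CPM against 45.9, 164, and 190 (-0.44 ± 0.35), Ctla4 at 452, 510, and 443 against 711, 543, and 648 (-0.40 ± 0.17), and Il10 at 44.1, 37.4, and 42.3 against 91.8, 12.6, and 38.1 (-0.03 ± 0.67). None of these 3 passed the test. Maf had 258, 137, and 148 CPM against 551, 429, and 343 (-1.35), and Mki67 376, 376, and 500 against 987, 745, and 972 (-1.11), both past the threshold whichever library was left out. Of 18 division genes 8 were lower in CD8-only cells (6 with TMM factors) and none higher. No gene of the resting, IL-2 signaling, or CD4 lineage lists was called. Of the genes of other cells, 1 of 2 B-cell genes and 1 of 2 kidney parenchyma genes were lower in CD8-only cells, 1 of 5 myeloid and 1 of 2 NK-cell genes were higher, and the 1 testable γδ T-cell gene was not called.

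The lowest value belonged to Lgals7, the gene of galectin-7, with 0, 3.25, and 2.41 CPM in CD8-only and 367, 253, and 19.0 in CD4-only Foxp3+ cells (log2 -6.61 ± 0.71, adjusted p = 2.9e-10). All 3 CD4-only values lay above all 3 CD8-only values, but they ranged widely. The lowest CD4-only value, 19.0 CPM in graft library 3, came from 12 cells with 52494 UMIs of all genes. The lack of overlap thus rests on very few UMIs of Lgals7. Cdkn2c, which restrains the cell cycle, was lower by 2.06, Cyfip1 by 1.88, and H2-Ab1, an MHC class II gene, by 1.82. Their calls were lost without graft library 2 (adjusted p = 0.0614 for Cdkn2c, 0.425 for Cyfip1, and 0.587 for H2-Ab1), and also without library 3 for Cdkn2c (0.118) and library 1 for H2-Ab1 (0.306). Tbc1d4 was lower by 1.99, which rested on graft library 1 (321 CPM in CD4-only cells), without which the value was 0.19. It was not called without library 3 either (0.0584), nor with TMM factors (0.0565).

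**Figure D5:**
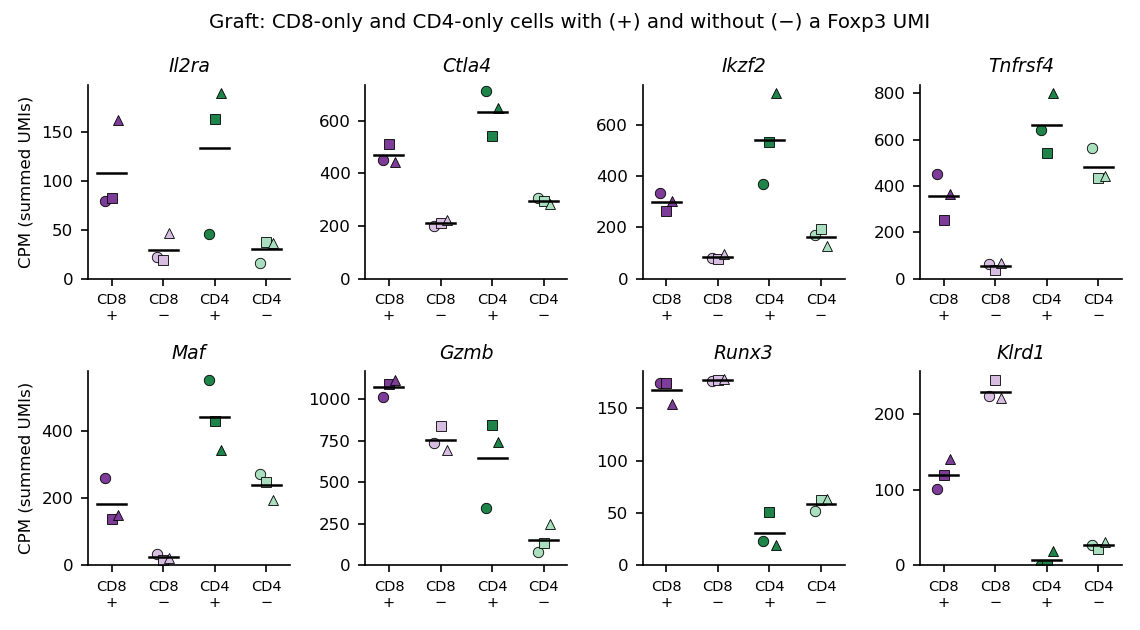
CPM of 8 genes (y axes, linear from 0) in CD8-only and CD4-only graft cells with (+) and without (−) a Foxp3 UMI, with 1 point per library (circle, square, and triangle for libraries 1, 2, and 3) and the mean as a bar. Il2ra, Ctla4, and Ikzf2 were called higher with Foxp3 in both classes, whereas Runx3 and Klrd1 were called higher in CD8-only than in CD4-only Foxp3+ cells.

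CD8-only Foxp3+ cells were also compared with CD8-only Foxp3-negative cells, where both sides were chosen by the same rule on coreceptor UMIs. The 2 sides still differed in depth and in their Cd8a and Cd8b1 levels, as given above. With the Foxp3-negative cells limited to a range of UMIs set by the Foxp3+ cells, 377 genes were called, and 312 of the 415 calls made without this limit were kept. Most genes of the Treg identity list and 12 of 22 of the effector Treg list were higher, and 6 of 20 of the CD8 and killing list were lower. Of 6375 genes 343 were higher (5.38%) and 72 lower (1.13%), or 190 and 162 with TMM factors, with a median of all genes of 0.10 and 0.00. The calls were 207, 258, and 266 without graft library 1, 2, and 3, and 26 among cells without division UMIs, where Izumo1r, Icos, Xcl1, Fcer1g, Klrk1, and Pdcd1 were not called. Of 17 Treg identity genes 13 rose and none fell (median 1.15), and of 22 effector Treg genes 12 rose and 1 fell (median 0.62).

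Maf had 258, 137, and 148 CPM against 32.8, 14.9, and 21.6 (log2 2.96 ± 0.14), and Tnfrsf4 450, 252, and 366 against 61.9, 36.7, and 68.3 (2.66 ± 0.11). Il2ra had 79.8, 82.9, and 163 CPM against 22.0, 19.3, and 46.3 (1.90), Ikzf2 334, 262, and 303 against 79.8, 74.3, and 95.7 (1.83), and Ctla4 452, 510, and 443 against 198, 210, and 224 (1.15). In each case the Foxp3+ libraries lay above all others. Il10 rose by 2.75 (37.4 to 44.1 CPM against 4.43 to 7.39), Lrrc32 by 3.10, Izumo1r by 1.76, Ccr2 by 1.45, and Icos by 0.82. Ly6c2 fell by 1.19, Xcl1 by 0.97, Fcer1g by 0.94, Klrd1 and Klrk1 by 0.91, and Pdcd1 by 0.48. With DESeq2, Xcl1 (adjusted p = 0.590), Fcer1g (0.542), and Pdcd1 (0.122) were not called, nor was Xcl1 with 2 Foxp3 UMIs required (0.152). Of the 20 CD8 and killing genes 2 rose and 6 fell, of 18 division genes 9 rose (4 with TMM factors), of 8 CD4 lineage genes 4 rose, and of 5 regulatory CD8 genes 4 rose. Of the genes of other cells, both testable B-cell genes (median 0.79) and 1 of 2 kidney parenchyma genes were higher, 2 of 5 myeloid genes and the 1 testable γδ T-cell gene (-0.68) were lower, and neither of 2 NK-cell genes was called. Their part in this comparison was not tested.

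CD4-only Foxp3+ cells differed from CD4-only Foxp3-negative cells in 105 genes that were higher (1.65%) and 47 that were lower (0.737%), or 58 and 143 with TMM factors, and the median of all genes was 0.06 and -0.15. Without graft library 1, 2, or 3 the calls came to 68, 71, and 89. Of 17 Treg identity genes 7 rose and none fell (median 0.49), and of 22 effector Treg genes 5 rose and 1 fell (median 0.63). Of 18 division genes 7 rose and none fell (median 0.65). Both testable B-cell genes were higher as well (median 1.49), 1 of 2 NK-cell genes was lower, and none of 5 myeloid, 2 kidney parenchyma, and 1 γδ T-cell genes was called. The part of these RNAs was not tested. Il2ra had 45.9, 164, and 190 CPM against 16.3, 37.8, and 36.8 (log2 2.30), Ikzf2 367, 530, and 724 against 171, 192, and 128 (1.78), and Ctla4 711, 543, and 648 against 307, 295, and 284 (1.07). Ccr2 rose by 2.46 (126 to 252 CPM against 24.3 to 43.5). Gzmb had 344, 846, and 743 CPM against 78.8, 135, and 247 (2.09).

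Lgals7 had 367, 253, and 19.0 CPM in CD4-only Foxp3+ cells against 21.7, 10.8, and 15.2 (log2 3.71), and the groups overlapped only through library 3. Hbs1l and Raph1 rose by 2.21 and 2.25, but Hbs1l was not called without graft library 2 (adjusted p = 0.604), nor Raph1 without library 1 (0.0655) or 3 (0.323). The chemokine gene Ccl3 had no UMI in CD4-only Foxp3+ cells and 92.3, 297, and 195 CPM in the others, and so was at least 11.4-fold lower. Tcf7 had 3 UMIs against 263, a ratio of 12.8 (95% interval 4.33 to 62.5) with the Foxp3+ cells lower, and Ifng, with 0, 88.4, and 57.1 CPM against 236, 232, and 219, was lower by 2.02. Ccl1 had no UMI against 89.6, 5.41, and 329 CPM (at least 9.10-fold lower), but its call was lost without graft library 1 (0.161) or 3 (0.336). Nrgn was lower by a ratio of 5.79 (interval 1.93 to 28.5), and its call was lost without library 1 (0.161), 2 (0.282), or 3 (0.0749). Of 20 CD8 and killing genes 1 rose and 3 fell. Their median was -1.30, or -0.85 with the genes at 0 set to their floor.

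By class, after thinning to 1000 UMIs, at least 1 of Il2ra, Ctla4, and Ikzf2 was seen in 55.2% of 337 CD8-only graft Foxp3+ cells, against 25.9% of CD8-only Foxp3-negative cells. In CD4-only cells the shares were 85.3% of 34 and 28.3%. In the spleen they were 47.1% of 70 CD8-only Foxp3+ cells against 5.39%, and 59.2% of 147 CD4-only Foxp3+ cells against 15.4%. Dividing cells made up 29.1%, 39.4%, and 50.9% of CD8-only Foxp3+ cells in graft libraries 1, 2, and 3, and 45.5%, 81.8%, and 75.0% of CD4-only Foxp3+ cells. Among Foxp3-negative cells of these libraries they made up 15.0%, 12.4%, and 34.0% of CD8-only and 27.9%, 16.9%, and 40.8% of CD4-only cells.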

How the data were processed

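Raw UMI counts per gene and cell were deposited by the authors as 1 matrix per tissue and time point, from reads mapped with Cell Ranger to mm10, per the submitters' processing notes (versions are not given in the sources used here). Cells had been filtered on their UMIs, their number of genes, and their mitochondrial share, and cell types had been named by hand. The 1-week graft and spleen matrices of CD8+ T cells held 19497 and 17517 genes, 17197 of them in both. The other CD8 matrices gave Foxp3+ cell numbers only, and CD45+ matrices of naive spleen and rejecting graft served for background.

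UMIs were summed per library and group, scaled to CPM by library totals, and tested by edgeR 4.0.16 (R 4.3.3) with filterByExpr, the quasi-likelihood test, the library as a block for comparisons within a tissue, and Benjamini-Hochberg adjustment at 0.05. As both sides of such a comparison come from the same library, the library number pairs them by design. Foxp3, and where they chose the cells Cd4, Cd8a, and Cd8b1, were left out of tests. A group needed 10 cells per library. Fold changes are on edgeR's log2 scale. Tested on simulated counts of 10819 genes for the graft comparison, it called 56 of 100 genes changed 2-fold, 77 of 100 changed 4-fold, and 6 unchanged genes. Exact permutation tests, Clopper-Pearson intervals at 95%, and thinning with a fixed seed used scipy 1.17.1 and numpy 2.4.6. Intervals cover counting error only, over pooled cells or, for ratios, over UMIs summed across the libraries of a group. They leave out the spread between cells and between libraries, and so can be too narrow. Permutation p-values and those of graft against spleen measure the spread between the 3 libraries of each tissue. With the library as a block, edgeR p-values measure the spread of the differences within libraries instead. The graft and spleen fits of Foxp3+ against Foxp3-negative cells shared 1 model and 1 estimate of spread. Spleen libraries therefore bear on graft calls, which came to 1346 without spleen library 3. DESeq2 1.42.0 and TMM served as alternatives.

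The rule and the 16 gene lists were chosen with earlier results of these data known. Genes named are list members and, per comparison, the 5 called genes at either end among those that reached 100 CPM in the higher group, where genes of antigen receptors, of mitochondria, and of ribosomal proteins were skipped. Cd4, Cd8a, and Cd8b1 are named as the genes of the classes. Cells without a CD8 UMI, and CD8-only cells, were added as alternatives after seeing the data. Cells of high UMIs lay above the 95th percentile of their library. Cells of mixed markers held at least 2 genes of the B-cell list or of the myeloid list, and no other list was used for this. No doublet caller was run. Coordinates are from GENCODE mouse release M21. One gene of the lists is not reported here by name.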

Additional observations from a re-analysis of the deposited data

Results flagged for a closer look

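The change with Foxp3 differed between graft and spleen, by the interaction term in edgeR at an adjusted p under 0.05, for each of the 14 genes whose difference between the tissues is named above. They are not all the named genes that differed, as 14 of 20 Treg identity and 15 of 18 division genes were called. It was lower in the graft, on the log2 scale, for Gzmb (-2.48), Fgl2 (-2.11), Ube2c (-2.03), Kif11 (-2.02), S100a4 (-1.99), Nrp1 (-1.95), Ctla4 (-1.53), Il2ra (-1.38), and Ikzf2 (-0.57). It was higher in the graft for Dapl1 (1.49), Lef1 (1.47), Arl4c (1.39), Cd8a (1.32), and Txk (1.19). Dapl1 and Nrp1 were not called among CD8-only cells (0.89 and -0.97), nor Cd8a (0.57) and Ikzf2 (-0.42) with at least 2 Foxp3 UMIs, nor Kif11 in cells without division UMIs (-1.50). In cells without a CD8 UMI Il2ra (-0.48), Ikzf2 (-0.09), Lef1 (0.92), Txk (0.81), and Dapl1 (-1.58) were not called, and without the replicate block Ube2c, Kif11, Dapl1, Il2ra, and Ikzf2 were not. For Il2ra and Nrp1 the Foxp3+ libraries of the tissues overlapped in level, and the Foxp3-negative libraries did not.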

How the results depend on the processing

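The direction of the mean of each coreceptor share and of the dividing share between graft and spleen held under every alternative, although the CD4-only shares overlapped among cells with 2 Foxp3 UMIs (exact permutation p = 0.3). Numbers of called genes moved more. For Foxp3+ against Foxp3-negative graft cells (1101 calls) there were 456 with DESeq2, 662 with at least 2 Foxp3 UMIs per Foxp3+ cell, 528 without cells of high UMIs or mixed markers, 66 in cells without division UMIs, 441 in cells without a CD8 UMI, and 475 in CD8-only cells. In the spleen (2953 calls) the same 6 settings gave 1436, 1639, 1624, 1601, 1629, and 918, and for the difference between tissues (978 calls) 402, 437, 523, 233, 111, and 283. Graft against spleen Foxp3+ cells (1126 calls) gave 663, 446, 450, 399, 327, and 298 in the same order, and 112 in CD4-only cells. CD8-only Foxp3+ against Foxp3-negative cells (415 calls) gave 213 with DESeq2, 199 without cells of high UMIs or mixed markers, and 26 without division UMIs. With the Foxp3-negative cells limited to a range of UMIs, the CD4-only pair (152 calls) gave 95 and the CD8-only pair 377. The graft comparison gave 1011 in that setting, the spleen 3206, and the difference between tissues 1320. In each library that range ran from the 10th to the 90th percentile of the Foxp3+ cells, which were all kept. Without the library as a replicate block there were 223 calls for graft Foxp3+ against Foxp3-negative cells, 76 for the difference between tissues, 21 for CD8-only against CD4-only Foxp3+ cells, 98 for the CD8-only pair, and 30 for the CD4-only pair, and Gzmb in the graft was no longer called (log2 0.52, adjusted p = 0.184). Nor without the block were Cd8a, Areg, Cxcr6, Cd160, Lag3, Mki67, Prf1, and Fgl2 in the graft, Cxcr6 in the spleen, Ube2c, Kif11, Dapl1, Il2ra, and Ikzf2 in the difference, Ccl3, Ifitm1, Ly6c2, Gzmb, Cxcr6, Pdcd1, Tbc1d4, H2-Ab1, Maf, Tnfrsf4, Ikzf2, and Mki67 between CD8-only and CD4-only cells, Fcer1g and Pdcd1 in the CD8-only pair, and Il2ra, Raph1, Ccl1, and Nrgn in the CD4-only pair. DESeq2 did not call Lag3, Mki67, and Prf1 in the graft, Ccl4 in the spleen, Cd4 and Mki67 in graft against spleen, Ifitm1, Gzmb, Tbc1d4, and H2-Ab1 in CD8-only against CD4-only cells, Xcl1, Fcer1g, and Pdcd1 in the CD8-only pair, or Nrgn in the CD4-only pair. For Itgb8 in the graft it gave a log2 change of 2.83 but no adjusted p, so that gene was not called either. Leaving out 1 library gave 588 to 1346 calls in the graft, 1880 to 2969 in the spleen, 527 to 933 for the difference, 749 to 1353 for graft against spleen, 46 to 64 for CD8-only against CD4-only, 207 to 266 for the CD8-only pair, and 68 to 89 for the CD4-only pair. The cause of these moves was not tested. Many of the settings used fewer cells or libraries, whereas DESeq2 and the fit without the block used the same ones.

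Graft and spleen libraries of the same number correlated by 0.18, 0.00, and 0.26 in their deviations from the tissue mean over 2752 genes, so no pairing by number was shown or excluded, and a block on it gave 1322 calls for graft against spleen. Of the 2472 recomputed values of named genes, 2267 kept their direction and their side of the threshold, 169 were no longer called, 6 became called, 21 changed sign without being called, and 9 that had been called changed sign. In graft cells without division UMIs these were Cd8a (0.0745), Cd160 (0.11), Lag3 (-0.0300), none of them called there, and Trat1, which had 0 UMIs in the 126 Foxp3+ cells, so that its fitted value (-7.16) gives neither a fold nor a direction. In cells without a CD8 UMI they were Prf1 in the graft (-0.47), Dapl1 in the difference between tissues (-1.58), and Ikzf2 in graft against spleen (0.0675). The last were Ccl4 in the spleen without spleen library 1 (-0.28, and up to 2.15 without another library) and Tbc1d4 in CD8-only against CD4-only Foxp3+ cells without graft library 1 (0.19, and down to -2.43 without another library). Fits of CD4-only Foxp3+ cells with 2 Foxp3 UMIs, without cells of high UMIs, or without division UMIs were not run, because fewer than 10 cells were left in a library. With 3 libraries a tissue no permutation test could go below 0.1.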
